A study of Mus musculus with 2 samples.

Results

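The platelet-derived growth factor (PDGF) pathway and the genes of pericytes, the mural cells that wrap small vessels, were examined in lung of mouse embryos at embryonic day 14.5 (E14.5). The 10 genes were the ligands Pdgfa, Pdgfb, Pdgfc and Pdgfd, the receptors Pdgfra and Pdgfrb, and the pericyte genes Cspg4, Rgs5, Kcnj8 and Abcc9. They were listed by symbol and matched by gene identifier to the GENCODE annotation of the mouse, and all 10 were found among the 43346 mouse genes of the deposited gene tables. The study holds 1 group of 2 total RNA sequencing libraries, biological replicates 1 and 2 of lung from B6NCrl embryos, made from 10.0 ng of RNA each and collected in July on day 15 (replicate 1) and day 17 (replicate 2). No embryo carried a stated allele or received a stated treatment. The labels call each sample both a pool of males and females and the lung of 1 pup, so how many animals stand behind a library is uncertain, and a p-value here speaks of these 2 libraries alone.

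PDGFs are dimers of paired chains that act through a pair of receptor tyrosine kinases. Chains A and C signal mainly through the alpha receptor, chain D mainly through the beta receptor, and chain B binds both. In the developing lung, epithelial PDGF-A acts on mesenchymal cells with the alpha receptor, which are the source of alveolar myofibroblasts, and endothelial PDGF-B draws pericytes with the beta receptor onto new vessels. Pericytes are commonly marked by the proteoglycan NG2 (Cspg4), the G-protein regulator Rgs5, and the Kir6.1 and SUR2 subunits of a potassium channel that closes with ATP (Kcnj8 and Abcc9).

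All 10 genes were detected, which here means at least 1 TPM in both libraries. TPM is a deposited unit of abundance per length, scaled to 1 sum over all features of a library, spike-ins included. Of all 21474 protein-coding genes, 58.8% were detected by the same measure. The beta receptor was the most abundant of the 10, at a mean of 50.03 TPM, and Pdgfd was the least abundant, at 4.04 TPM. The median of the 10 mean levels was 11.1 TPM, beside 4.10 TPM for all protein-coding genes, detected or not. For the 14870 mouse genes with a mean of at least 1 TPM it was 16.2 TPM, above that of the 10. Replicate 1 stood apart by its heart muscle genes, whose values are given with the comparison of the libraries. In whole tissue, fewer cells of a type and less RNA per cell cannot be told apart. Positions below are 1-based on mm10 (GRCm38).

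**Figure D1:**
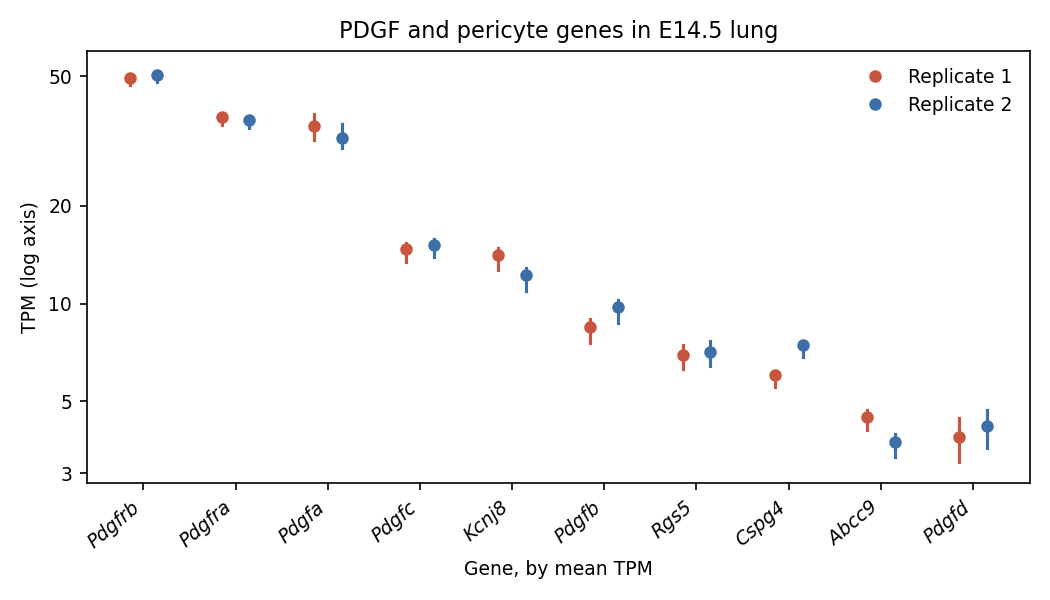
TPM of each gene on a log axis in replicate 1 (red) and replicate 2 (blue), with genes from left to right by falling mean TPM and vertical lines for the deposited credibility interval of each library. Pdgfrb, Pdgfra and Pdgfa lie above 30 TPM in both libraries, and the other 7 genes lie between 3.75 TPM and 15.2 TPM.

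Among the ligands, Pdgfa, on chromosome 5 from 138976014 to 138997370 on the minus strand (ENSMUSG00000025856.11), had 35.3 TPM in replicate 1, against 32.4 TPM in replicate 2, a mean of 33.8 ± 2.09 TPM (SD, n = 2, as for all means below). Its expected counts, which are estimated numbers of reads, were nearly equal, at 1161 in replicate 1 and 1167 in replicate 2. The deposited effective length of the gene, which weights its transcripts by abundance, was 1474 nt in replicate 1 and 1611 nt in replicate 2, and TPM is divided by that length. Pdgfa stood at percentile 79.4 of all protein-coding genes.

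Pdgfc, on chromosome 3 from 81036416 to 81214040 on the plus strand (ENSMUSG00000028019.5), codes for a chain whose CUB domain must be cut off before it binds a receptor. It had 14.7 TPM in replicate 1, against 15.2 TPM in replicate 2, a mean of 15.0 ± 0.332 TPM. Pdgfb, the endothelial ligand, lies on chromosome 15 from 79995874 to 80014977 on the minus strand (ENSMUSG00000000489.6). It had 8.45 TPM in replicate 1, against 9.73 TPM in replicate 2, a mean of 9.09 ± 0.905 TPM. Pdgfd, on chromosome 9 from 6168584 to 6378850 on the plus strand (ENSMUSG00000032006.10), codes for the other chain with a CUB domain and had 3.88 TPM in replicate 1, against 4.20 TPM in replicate 2, a mean of 4.04 ± 0.226 TPM.

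By TPM of whole genes, the 4 ligands thus kept 1 order in both libraries, Pdgfa over Pdgfc over Pdgfb over Pdgfd, with no overlap between neighbours. The estimate for full-length Pdgfc alone does not follow this order. That transcript, described below, was estimated at 2.84 TPM in replicate 1 and 2.77 TPM in replicate 2, under both Pdgfb and Pdgfd. In replicate 1 its deposited credibility interval (2.07 to 3.57 TPM) overlapped that of Pdgfd (3.25 to 4.44 TPM). In replicate 2 the intervals were apart (1.98 to 3.41 TPM and 3.60 to 4.71 TPM). The estimate also rests on reads at the longer 5′ end of this transcript, as given below. The shares that follow are also of whole genes. Pdgfa made up 56.6% of their summed TPM in replicate 1 and 52.6% in replicate 2. The share of Pdgfc was 23.6% in replicate 1 and 24.7% in replicate 2, and that of Pdgfb was 13.5% in replicate 1 and 15.8% in replicate 2. Platelets also carry PDGF, and all 5 platelet and megakaryocyte genes listed were detected, with a summed level of 67.0 TPM in replicate 1, against 70.1 TPM in replicate 2. Pf4 was highest at 46.3 ± 1.63 TPM, followed by Itga2b at 8.33 ± 0.219 TPM and Ppbp at 7.00 ± 0.594 TPM, and Gp9 was lowest at 3.40 ± 0.262 TPM. The part of platelet RNA in the ligand levels was not tested.

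The receptors were the most abundant of the 10 genes. Pdgfrb, on chromosome 18 from 61045150 to 61085061 on the plus strand (ENSMUSG00000024620.7), had 49.5 TPM in replicate 1, against 50.6 TPM in replicate 2, a mean of 50.03 ± 0.820 TPM, at percentile 85.4 of protein-coding genes. Pdgfra, on chromosome 5 from 75152292 to 75198215 on the plus strand (ENSMUSG00000029231.11), had 37.4 TPM in replicate 1, against 36.7 TPM in replicate 2, a mean of 37.0 ± 0.537 TPM, at percentile 81.0. The level of Pdgfrb was 1.32 times that of Pdgfra in replicate 1 and 1.38 times in replicate 2. The SD of each receptor was under 2% of its mean, and the values of the receptors did not overlap. Summed over genes, receptor TPM was 1.39 times ligand TPM in replicate 1 and 1.42 times in replicate 2.

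Pdgfra and Cspg4 also mark precursors of oligodendrocytes, and glia accompany the nerves of the lung. Among transcription factors of these lineages, Olig1, Olig2 and Sox10 were below the detection level of 1 TPM. Olig2, of the oligodendrocyte lineage, had 0 counts in each library, so at most 3 counts are allowed there. Its partner Olig1 had 0.09 TPM in replicate 1, against 0.06 TPM in replicate 2. Sox10, a factor of glia and neural crest, had 0.29 TPM in replicate 1, against 0.63 TPM in replicate 2, on 17 and 37 counts. The part of such cells in the levels of Pdgfra and Cspg4 was not tested.

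The pericyte genes were lower than both receptors. Kcnj8, on chromosome 6 from 142564837 to 142571614 on the minus strand (ENSMUSG00000030247.7), had 14.1 TPM in replicate 1, against 12.2 TPM in replicate 2, a mean of 13.1 ± 1.32 TPM. Rgs5, on chromosome 1 from 169655501 to 169695813 on the plus strand (ENSMUSG00000026678.6), speeds up GTP hydrolysis by G proteins. It had 6.93 TPM in replicate 1, against 7.12 TPM in replicate 2, a mean of 7.03 ± 0.134 TPM. Cspg4, on chromosome 9 from 56865033 to 56899870 on the plus strand (ENSMUSG00000032911.5), had 6.02 TPM in replicate 1, against 7.44 TPM in replicate 2, a mean of 6.73 ± 1.00 TPM. Abcc9, on chromosome 6 from 142587862 to 142702315 on the minus strand (ENSMUSG00000030249.11), had 4.48 TPM in replicate 1, against 3.75 TPM in replicate 2, a mean of 4.12 ± 0.516 TPM. The spread of Cspg4, at 14.9% of its mean, was the widest of the 10 genes, and that of Pdgfra, at 1.45%, the narrowest.

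Of the 9 neighbouring pairs in the order by mean TPM, 7 had values in the 2 libraries that did not overlap. In 4 of these the deposited credibility intervals were also apart, namely Pdgfrb over Pdgfra, Pdgfa over Pdgfc, Kcnj8 over Pdgfb and Cspg4 over Abcc9. Rgs5 and Cspg4 did not differ beyond their spread, nor did Abcc9 and Pdgfd, and both pairs changed places in replicate 2. Neighbouring genes were measured in the same 2 libraries, which are too few for a test of the order, so none was run.

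Pdgfa is known for a long and a short form of its chain, and transcripts of both were estimated. The long form ends in a run of basic residues, coded by an alternative exon of 69 nt on chromosome 5 from 138978622 to 138978690, that holds the protein at cell surfaces and matrix by binding heparan sulfate. The short form skips that exon and is released. The coding ends of both forms are shown because they carry this difference. They come from GENCODE M21 transcript sequences on GRCm38, 5′ to 3′ on the minus strand, at chr5:138978635-138978690 with the exon and at chr5:138977217-138977227 without it, and capitals mark codons for lysine or arginine.
Pdgfa with the alternative exon: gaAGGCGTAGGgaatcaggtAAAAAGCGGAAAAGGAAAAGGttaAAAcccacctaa
Pdgfa without the alternative exon: atgtgAGGtga
Of 18 codons that touch the alternative exon, 11 code for lysine or arginine, and the full reading frames hold 211 codons with the exon and 196 without it.

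Most Pdgfa RNA was assigned to coding transcripts that lack the basic stretch. The transcript with the exon, Pdgfa-201, had 4.42 TPM in replicate 1, against 3.57 TPM in replicate 2, while the 3 coding transcripts without it summed to 23.66 TPM in replicate 1, against 26.96 TPM in replicate 2. The form with the exon thus made up 15.7% of coding Pdgfa TPM in replicate 1 and 11.7% in replicate 2, a mean of 13.7 ± 2.86%. The expected counts for it were 142.39 with a posterior SD of 31.95 in replicate 1 and 115.43 with a posterior SD of 30.69 in replicate 2. That difference was 0.61 times the combined posterior SD, so it lay within the error of assigning reads to transcripts. Pdgfa-202, which lacks the exon and held most of the counts, reaches further at its 3′ end, to 138976014, against 138976516 for Pdgfa-201. Reads at that end and reads over the exon both entered the estimate, so the exon and the transcript end cannot be told apart here.

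Non-coding Pdgfa transcripts took 20.5% of the gene's TPM in replicate 1 and 5.63% in replicate 2. The share was 21.4% in replicate 1 and 10.1% in replicate 2 by posterior mean TPM, and 8.23% in replicate 1 and 1.93% in replicate 2 by expected counts, which are not divided by length. Nearly all of the expected counts were on Pdgfa-207, a transcript of 691 nt, with 95.52 expected counts (posterior SD 24.69) in replicate 1 and 21.05 (posterior SD 19.55) in replicate 2. The difference was 2.36 times the combined posterior SD, and the deposited credibility intervals for its TPM overlapped, from 3.35 to 10.9 TPM in replicate 1 and from 7.04e-06 to 5.02 TPM in replicate 2. An antisense gene, 6330403L08Rik, overlaps Pdgfa and had 0.40 TPM in replicate 1, against 0.51 TPM in replicate 2. The sources used here do not say whether strand was used in counting. The posterior SD of the Pdgfa gene count was 1.02 reads in replicate 1 and 1.59 in replicate 2. Few reads were therefore uncertain between Pdgfa and other genes in the estimate.

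For Pdgfc, most of the estimated RNA fell on annotated transcripts that cannot make the full chain. Pdgfc-202 and Pdgfc-203, which the annotation marks as targets of nonsense-mediated decay, hold an extra exon of 59 nt on chromosome 3 from 81131018 to 81131076. The frame stops inside that exon, as its bases up to the stop codon show (chr3:81131018-81131073, plus strand, GENCODE M21, capitals for the stop codon).
Pdgfc alternative exon: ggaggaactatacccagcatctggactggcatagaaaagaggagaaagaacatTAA
The frame of Pdgfc-202 has 57 codons, against 345 in the full-length Pdgfc-201.

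The transcripts with this exon carried 11.89 TPM in replicate 1, against 12.43 TPM in replicate 2, or 80.7% and 81.8% of the gene. Pdgfc-201 carried 2.84 TPM in replicate 1, against 2.77 TPM in replicate 2, or 19.3% and 18.2%. Both libraries thus placed about the same large share on the forms with the early stop. Pdgfc-201 also reaches 756 bases further at its 5′ end, so reads at that end and reads over the exon both entered the estimate, and the use of the exon and that of the start cannot be told apart here. On the scale of expected counts, the share of the forms with the early stop was 76.9% in replicate 1 and 78.1% in replicate 2.

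The transcripts of Pdgfd differ by an alternative splice acceptor in the coding region that adds 18 bases, and so 6 codons, to Pdgfd-202. The exon start is shown with the added bases in capitals (chr9:6288472-6288531, plus strand, GENCODE M21).
Pdgfd upstream acceptor: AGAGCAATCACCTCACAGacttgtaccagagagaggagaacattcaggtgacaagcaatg
Pdgfd-201, which lacks these bases, made up 67.3% of the gene's TPM in replicate 1 and 73.3% in replicate 2. Pdgfd-202 made up 32.7% in replicate 1 and 26.7% in replicate 2, on 48.05 and 42.65 expected counts with posterior SDs of 13.42 and 7.83. In GENCODE M21, Pdgfd-201 also extends 1326 bases further at the 3′ end. By deposited length, Pdgfd-201 was the longer transcript by 1257 nt, so the acceptor and the transcript end cannot be told apart either. Pdgfb has 1 transcript in the tables.

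Both Pdgfra transcripts code for the same number of codons, 1089, and differ in their first exon. Pdgfra-201 made up 97.0% of the gene's TPM in replicate 1 and 93.4% in replicate 2, and Pdgfra-202 the rest. The difference in the counts of Pdgfra-202 was 0.88 times the combined posterior SD, within the error of assignment. Pdgfrb had all of its expected counts on Pdgfrb-201 in both libraries, 5854 in replicate 1 and 6014 in replicate 2.

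SUR2, the Abcc9 protein, comes in forms that differ in their last 45 codons and in tissue use: SUR2A is the form of heart and skeletal muscle, and SUR2B that of vascular smooth muscle and many other cells. The SUR2A end is coded by a penultimate exon of 176 nt on chromosome 6 from 142593967 to 142594142, and transcripts that skip it read on into the last exon and give the SUR2B end. The coding ends are shown because they set these forms apart (minus strand, GENCODE M21, chr6:142594005-142594142 for SUR2A and chr6:142590366-142590503 for SUR2B, capitals for the stop codon).
SUR2A end: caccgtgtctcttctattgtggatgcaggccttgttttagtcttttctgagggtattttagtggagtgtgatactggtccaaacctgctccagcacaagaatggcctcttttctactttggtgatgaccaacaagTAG
SUR2B end: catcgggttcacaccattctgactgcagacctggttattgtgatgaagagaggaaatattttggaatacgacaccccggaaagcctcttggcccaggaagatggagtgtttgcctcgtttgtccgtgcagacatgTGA
Position by position, 17 of the 45 residues coded are identical, or 37.8%.

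All expected counts of Abcc9 were assigned to the transcript with the SUR2B end (ENSMUST00000100827.2), 726 in replicate 1 and 609 in replicate 2. The 3 transcripts with the SUR2A end (ENSMUST00000073173.7, ENSMUST00000087527.6 and ENSMUST00000111771.3) had 0 expected counts in both libraries. Their posterior mean TPM, a second deposited estimate that spreads reads over the transcripts that share them, summed to 11% of the gene in replicate 1 and 11.8% in replicate 2. The upper credibility bounds of the 3 transcripts ranged from 0.368 to 0.527 TPM. The SUR2A forms were therefore not detectable at this depth, and a share of the size that the posterior means give lies within the deposited error. Cspg4 and Kcnj8 have 1 transcript each in the tables, and the shorter Rgs5 transcript (ENSMUST00000152809.2) had 0 expected counts in replicate 1 and 3.69 in replicate 2.

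**Figure D2:**
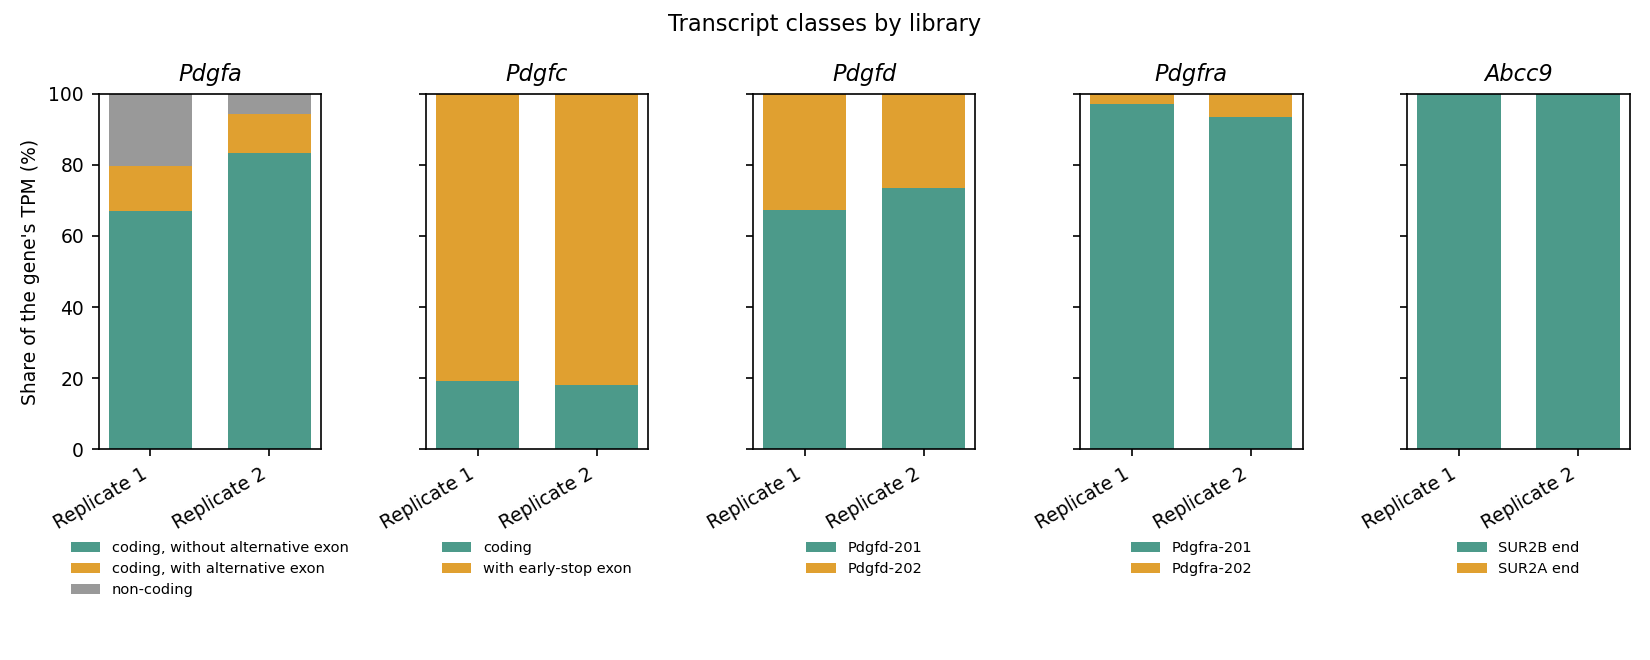
Share of each gene's TPM in percent, stacked by transcript class, for replicate 1 (left bar of each panel) and replicate 2 (right bar). The Pdgfc forms with an early stop take 80.7% and 81.8%, the SUR2B end takes all of Abcc9, and the non-coding share of Pdgfa is 20.5% in replicate 1 and 5.63% in replicate 2.

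How far the libraries differed in these genes was tested on the expected counts, each rounded to a whole number, with TMM scaling in edgeR, by an exact two-sided binomial test with Benjamini-Hochberg adjustment over the 14870 genes with a mean of at least 1 TPM. A gene was called at an adjusted p under 0.05 and a change of at least 2-fold. By this rule 169 genes were called, or 1.14%, of which 116 (0.78%) were higher in replicate 1 and 53 (0.356%) lower. Of the PDGF and pericyte genes 0 of 10 were called in either direction. At an adjusted p under 0.05 and any size, 22.5% of all genes tested passed, as did 4 of the 10, a share to be read against that background. Smaller differences pass at higher counts, and the background was not matched for counts, here or for the lists below. The median log2 ratio of replicate 1 over replicate 2 was 0.04 for the 10 genes and 0.00 for all genes tested. The TMM scale uses mouse genes and TPM includes the spike-ins, so small differences can have opposite signs on these scales.

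The 4 genes past the adjusted p comprised the alpha receptor and 3 of the 4 pericyte genes. Abcc9 had 726 counts in replicate 1 and 609 in replicate 2, a log2 ratio of 0.32 (95% interval 0.16 to 0.47, adjusted p = 0.000868). Kcnj8 had 656 counts in replicate 1 and 571 in replicate 2, a log2 ratio of 0.26 (0.10 to 0.43, adjusted p = 0.0104). These channel partners were both higher in replicate 1, and their ratio, Kcnj8 over Abcc9 in TPM, was 3.14 in replicate 1 and 3.26 in replicate 2. Cspg4 was lower in replicate 1, with 1067 counts there and 1324 in replicate 2, a log2 ratio of -0.25 (-0.37 to -0.13, adjusted p = 0.000394). Pdgfra had 5385 counts in replicate 1 and 5296 in replicate 2, and its log2 ratio of 0.09 (0.03 to 0.14, adjusted p = 0.0128) was a 1.06-fold difference.

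The other 6 genes did not pass. Their log2 ratios lay between -0.15 for Pdgfb (-0.32 to 0.02, adjusted p = 0.222) and 0.06 for Rgs5 (adjusted p = 0.647). The binomial test covers counting error only. In edgeR's exact test with a common dispersion, estimated as if the libraries were replicates of 1 group (biological coefficient of variation 9.58%), 0 of the 10 genes passed at an adjusted p under 0.05 and 0 at an unadjusted p under 0.05. That dispersion came from the same 2 libraries that were compared, so small differences could hardly pass and the result is no independent check. When the libraries were scaled by their spike-ins, the median of all genes moved by -0.34, and the log2 ratios became -0.26 for Pdgfra, -0.080 for Kcnj8, -0.026 for Abcc9 and -0.59 for Cspg4. That shift is the same for every gene, so distances from the median stayed as they were.

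Heart muscle genes set the libraries apart. The summed level of 10 heart muscle genes was 451 TPM in replicate 1, against 31.6 TPM in replicate 2. By mean TPM, Myl7, an atrial myosin light chain, was highest, with 270 TPM in replicate 1, against 17.3 TPM in replicate 2. Tnnt2 followed (44.8 TPM in replicate 1, 4.82 TPM in replicate 2), then Tnni3 (38.3 TPM in replicate 1, 4.37 TPM in replicate 2). These 3 genes, Myh6 and Csrp3 were at least 1 TPM in both libraries and were called higher in replicate 1. Nppa, Mybpc3, Actn2 and Ttn were also called higher there, but they were below 1 TPM in replicate 2 and entered the test only through replicate 1, so their calls add no support. Ryr2, the lowest by mean TPM, was not tested, at 0.86 TPM in replicate 1 and 0.75 TPM in replicate 2. Heart muscle also uses Kcnj8 and Abcc9. The SUR2A transcripts of Abcc9 had 0 expected counts in both libraries. Kcnj11, the other pore subunit of this channel family, had 0 counts too. Of 14 other mural markers tested, 6 were higher and 2 lower in replicate 1 at an adjusted p under 0.05 in the binomial test. Over all genes tested, 11.5% were higher and 11% lower. The part of heart or mural cell RNA in the higher values of Kcnj8 and Abcc9 in replicate 1 was not tested.

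**Figure D3:**
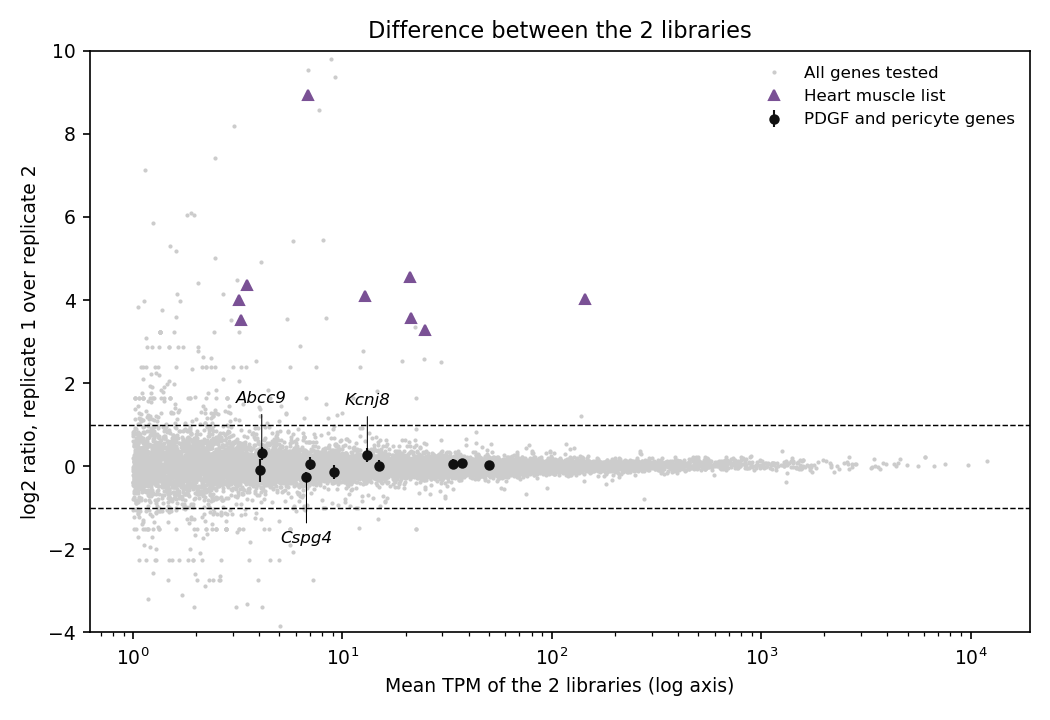
log2 ratio of replicate 1 over replicate 2 against mean TPM (log axis) for all genes tested (grey), the heart muscle list (triangles) and the PDGF and pericyte genes (black, with 95% exact intervals), with dashed lines at the 2-fold limit. The 10 genes lie between -0.25 and 0.32, inside the limit, and the heart muscle genes lie far above it, while 14 genes fall outside the plotted range.

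The genes that act around the ligands and receptors were also present. Of 7 proteases that cut PDGF chains, 6 were detected, with a median of 13.4 TPM. St14 (matriptase), which can activate chain D, averaged 29.95 ± 3.05 TPM. Plat (tissue plasminogen activator), which activates chain C, averaged 27.3 ± 2.67 TPM, and Furin, which cuts the precursors of chains A and B, 14.9 ± 1.07 TPM. Plau (urokinase) was the lowest, at 0.80 TPM, and the 1 gene below detection. In both libraries Plat was thus above its substrate Pdgfc, and St14 above Pdgfd.

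All 5 co-receptors and matrix binders were detected, with a median of 48.5 TPM. Sparc, a matrix protein that binds chain B, averaged 1122 ± 11.4 TPM, Lrp1, an endocytic receptor that associates with Pdgfrb, 55.5 ± 1.34 TPM, and Nrp1, a co-receptor, 48.5 ± 0.339 TPM. Ndst1, which sulfates the heparan chains that basic PDGF ends bind, was lowest, at 18.9 ± 0.339 TPM. All 16 genes of signalling next to the receptors were detected, with a median of 27.6 TPM, from Crk (adaptor, 89.3 ± 6.10 TPM), Rasa1 (Ras inhibitor, 60.1 ± 2.93 TPM) and Nck1 (adaptor, 58.3 ± 2.36 TPM) down to Ptprj, a phosphatase that acts on Pdgfrb, at 4.12 ± 0.332 TPM. None of these 28 protease, matrix and signalling genes was called between the libraries, and of the 27 tested, 4 were higher and 8 lower in replicate 1 at an adjusted p under 0.05 in the binomial test, beside 11.5% higher and 11% lower over all genes tested.

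The PDGF receptors belong to a family of kinases with Kit, Csf1r and Flt3, close to the VEGF receptors Flt1, Kdr and Flt4. Kdr, of endothelium, averaged 48.8 ± 0.587 TPM, close to Pdgfrb. Kit, the receptor of stem cell factor, averaged 32.3 ± 3.19 TPM, Flt1 15.6 ± 2.64 TPM, Csf1r, of macrophages, 15.35 ± 1.65 TPM and Flt4, of lymphatic endothelium, 11.5 ± 0.339 TPM. Flt3, of blood precursors, was not detected, at 0.13 TPM in replicate 1, against 0.05 TPM in replicate 2. The family stands in pairs on the chromosomes: Kit is the next protein-coding gene after Pdgfra on the same strand, 376700 bases on, and Csf1r the next after Pdgfrb, 15536 bases on. In both pairs and in both libraries the PDGF receptor was the more abundant gene. The VEGF-family ligands, relatives of PDGFs in structure, ran from 5.54 ± 0.481 TPM for Vegfa to 34.7 ± 1.88 TPM for Vegfb, so the highest of them, with Vegfd at 33.8 ± 2.15 TPM, stood at the level of Pdgfa.

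Kcnj8 and Abcc9 also lie side by side, 16247 bases apart on the same strand, and were the only ones detected of the 4 subunits of their channel family. Kcnj11, the other pore subunit, had 0 counts in each library, so at most 3 counts are allowed there, and Abcc8 (SUR1), the other regulatory subunit, had 0.41 TPM in replicate 1, against 0.14 TPM in replicate 2. Of the 10 genes of the R4 family of G-protein regulators, 5 were detected. Rgs5 was the third of them, after Rgs2 (74.0 ± 3.83 TPM) and Rgs3 (29.8 ± 0.693 TPM). Rgs4, its neighbour at 45663 bases, had 3.42 TPM in replicate 1, against 2.31 TPM in replicate 2, a log2 ratio of 0.70 (adjusted p = 0.00011 in the binomial test). Rgs18 averaged 1.71 ± 0.417 TPM, and Rgs1, Rgs8, Rgs13, Rgs16 and Rgs21 had between 0 and 0.42 TPM in each library.

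Markers of other vessel wall cells and of the rest of the lung were also measured. Of 18 further mural cell markers, 14 were detected, with a median of 16.0 TPM and a summed level of 411 TPM in replicate 1, against 394 TPM in replicate 2. Mcam, an adhesion molecule also found on endothelium, averaged 67.7 ± 0.785 TPM, Gjc1, a connexin, 63.2 ± 2.64 TPM and Postn, a matrix protein, 51.4 ± 11.2 TPM. Vtn (vitronectin), a marker of brain pericytes, was the lowest at 0.28 ± 0.170 TPM, and Foxc1, Lamc3 and Tbx18 were also below detection. Of the 14 tested, 6 were higher and 2 lower in replicate 1 at an adjusted p under 0.05 in the binomial test, beside 11.5% higher and 11% lower over all genes tested, and 0 were called.

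All 7 smooth muscle genes were detected, led by Acta2 (actin of smooth muscle) at 731 ± 4.89 TPM, with Tagln at 91.2 ± 5.67 TPM and Smtn at 83.9 ± 4.74 TPM, and with Lmod1 lowest at 2.77 ± 0.318 TPM. Airway smooth muscle and myofibroblasts use these genes too. All 10 endothelial genes were detected, led by Egfl7 at 232 ± 27.8 TPM, Esam at 120 ± 3.66 TPM and Plvap at 101 ± 9.04 TPM, and the lowest, Tek, a receptor of angiopoietins, had 33.0 ± 0.410 TPM. Their summed level was 806 TPM in replicate 1, against 870 TPM in replicate 2. The median of the 4 pericyte genes, 6.88 TPM, was thus below the medians of the other mural (16.0 TPM), smooth muscle (52.0 TPM) and endothelial (64.9 TPM) lists, and only Kcnj8 of the 4 came near the first of these.

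Lung identity was clear in both libraries. All 9 mesenchymal genes were detected, led by Col1a1 at 834 ± 1.32 TPM, Tcf21 at 184 ± 2.92 TPM and Foxf1 at 138 ± 10.3 TPM, with Gli1 lowest at 12.2 ± 1.30 TPM. All 7 epithelial genes were detected, led by Sftpc at 2155 ± 40.1 TPM, Epcam at 226 ± 0.544 TPM and Krt8 at 162 ± 1.87 TPM, with Foxa2 lowest at 33.8 ± 1.38 TPM. All 5 macrophage genes and all 4 mesothelial genes were detected, with medians of 10.3 TPM and 5.79 TPM. C1qa led the macrophage genes at 22.2 ± 1.48 TPM, with Cd68 at 10.3 ± 0.757 TPM and Adgre1 lowest at 4.31 ± 0.106 TPM. Upk3b led the mesothelial genes at 30.3 ± 2.05 TPM, with Wt1 at 7.11 ± 0.035 TPM and Lrrn4 at 4.47 ± 1.00 TPM. Msln, a mesothelial surface protein, was called higher in replicate 1, at 2.98 TPM there and 1.24 TPM in replicate 2 (log2 ratio 1.31). Replicate 1 held 33601136 expected counts in all and replicate 2 held 34535168, and spike-ins took 4.94% and 3.96% of these.

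**Figure D4:**
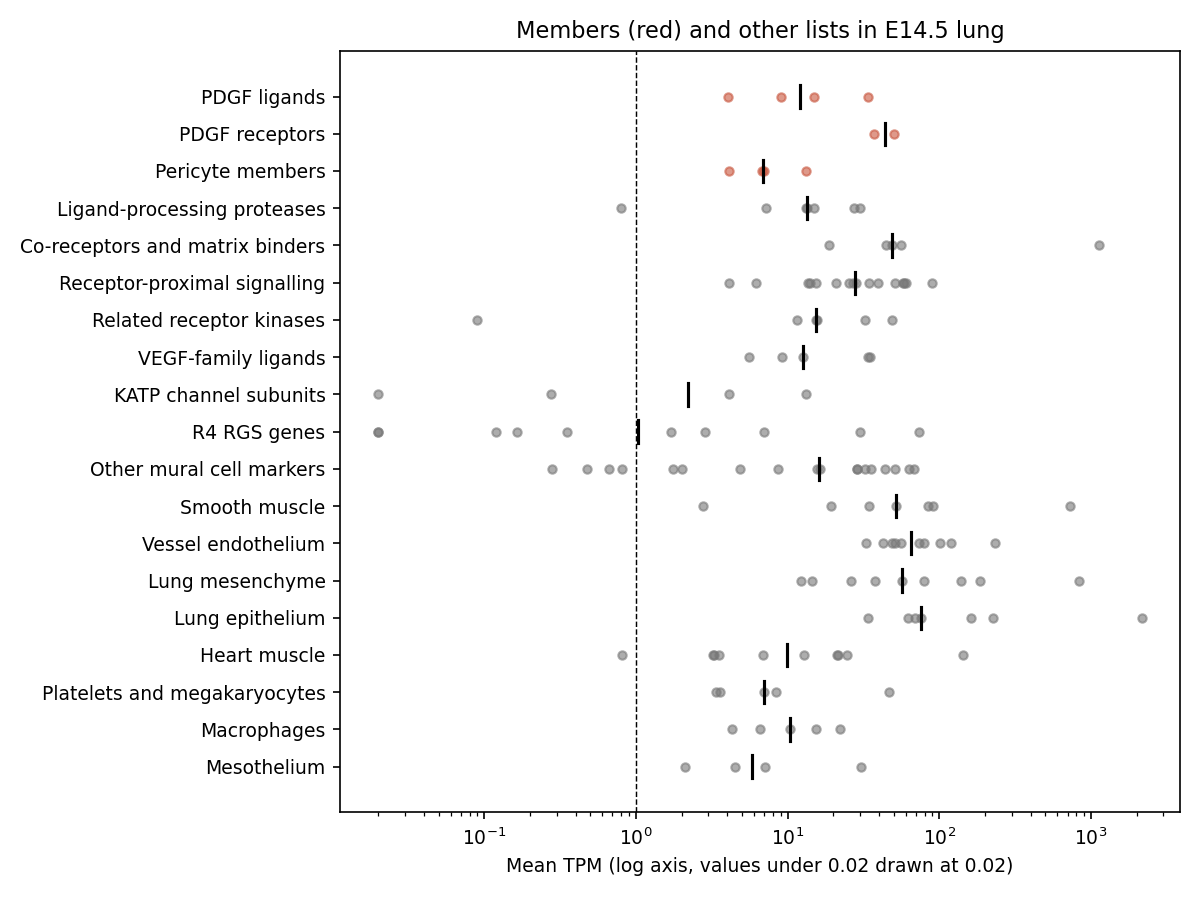
Mean TPM over both libraries (log axis) of the genes of each list except the glial one, with the PDGF and pericyte genes in red, the other lists in grey, a black bar at each list's median and a dashed line at the detection level of 1 TPM. Both receptors lie below the medians of the smooth muscle (52.0 TPM) and endothelial (64.9 TPM) lists, and the pericyte genes lie between 4.12 TPM and 13.1 TPM.

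The reads behind the 10 genes were almost free of sharing with other genes, since the deposited posterior SD of the gene count was at most 1.59 reads for any of them in either library. Of the annotated genes that overlap them, Gm41361 (Pdgfb), Gm42802 and Gm42803 (Pdgfra) have no value here, and the microRNA genes Mir7213 (Pdgfb) and Mir7025 (Pdgfra) had 0 counts. Ddi1, which lies within Pdgfd, had 0 counts in replicate 1 and 3 in replicate 2, Gm16000, antisense to Pdgfc, had 1.10 and 1.08 expected counts, and 5330439B14Rik, antisense to Abcc9, had 0 in both. Of those measured, the antisense partner of Pdgfa named above had the most, 48.04 expected counts in replicate 1 and 62.47 in replicate 2. Among the other nearest protein-coding neighbours, Gm5294 beside Pdgfa and Gsx2 beside Pdgfra had 0 counts in both libraries, and Rpl3, a ribosomal protein gene beside Pdgfb, averaged 1124 ± 7.11 TPM.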

How the data were processed

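For each of the 2 libraries, 1 table of genes and 1 of transcripts were deposited. Per the file headers these hold expected counts (estimated reads, not normalized), TPM, FPKM, the percent of a gene's TPM on each transcript, posterior SDs and credibility bounds. No source used here names the credibility level, the aligner, the quantification program or the use of strand. The deposited read-me files name mm10 and GENCODE M4. Names, coordinates and transcript sequences came from GENCODE M21 (GRCm38, which is the build mm10), and 17 of the 25 transcripts of these genes had the deposited length there. Per the labels RNA was extracted with mirVana, RNA under 200 nt was left out, and spike-ins were added. A protocol linked there is that of Smart-seq, which makes cDNA from small inputs.

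From these files, means and SDs of TPM were taken over n = 2. Expected counts were rounded, TMM factors were computed (edgeR 4.0.16 in R 4.3.3), 0.5 was added before the log2 ratio, and an exact binomial test (SciPy 1.17.1) compared the libraries for all genes with a mean of at least 1 TPM. edgeR's quasi-likelihood test could not be used with 1 library a side. Intervals are 95% and cover counting error only, and for a count of 0 the limit is 3 counts. Alternatives were DESeq2 1.42.0 size factors, spike-in or total scaling, no filter, another added count, edgeR's exact test, no fold limit, and posterior mean TPM.

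The genes and all lists were chosen with earlier results of these data known. Named genes are all 10, all members of the kinase, VEGF, channel and R4 lists by value or range, the 3 highest and the lowest of each other list, each list member called, genes that overlap the 10 and, in part, their nearest neighbours. In addition, some genes that define a cell type or fell below detection were named after their values were seen. Some genes of the glial list are not reported here, so no count or sum over that list is given.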

Additional observations from a re-analysis of the deposited data

How the results depend on the processing

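The order of the 10 genes by mean TPM stayed the same with posterior mean TPM, FPKM and without replicate 2, whereas without replicate 1 only 6 genes kept their place (range 6 to 10 over the 2 libraries left out), since Rgs5 with Cspg4 and Abcc9 with Pdgfd then swap. Scaling by spike-ins called 290 genes in place of 169 (30% of them higher in replicate 1, while TMM gave 68.6%). It put 8 of the 10 genes past the adjusted p, all lower in replicate 1. The median log2 ratio was then -0.34 for all genes tested and -0.30 for the 10. The share of all genes past the adjusted p on this scale is not given here, so the 8 cannot be read as particular to these genes. The scaling also turned the log2 ratio of 7 genes: Pdgfa to -0.29, Pdgfc to -0.33, Pdgfra to -0.26, Pdgfrb to -0.32, Rgs5 to -0.28, Kcnj8 to -0.080 and Abcc9 to -0.026. Without the filter on low values 538 of 24179 genes were called, with edgeR's exact test 106, and with no 2-fold limit 3347, of which 4 belong to the 10; with edgeR's exact test 0 of the 10 passed the adjusted p. With posterior mean TPM, 11.4% of Abcc9 lay on the SUR2A end and 88.6% on the SUR2B end. The spike-in scale moved every ratio by the same amount, and edgeR's exact test added a dispersion that the binomial test lacks. Why the spike-ins and TMM gave different scales was not tested, nor was the cause of the change with posterior means. The other settings test more genes or drop a limit. No paired analysis was possible because the study has 1 group, and leaving out a library leaves no ratio between libraries. With 2 libraries of 1 group, no level can be set against a condition, the shares of transcripts rest on reads that several transcripts share, and Pdgfd, at 220 and 246 counts, had the widest interval of the 10 ratios.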
